A study of Homo sapiens with 9 samples.

Results

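Metallothioneins, the zinc-sensing transcription factor MTF1 and the zinc exporter SLC30A1 were followed across 9 libraries of polyadenylated RNA from AC16, an immortal human line that was derived by fusion of adult ventricular heart cells with a fibroblast line. The 8 genes are MT1E, MT1F, MT1G, MT1M, MT1X, MT2A, MTF1 and SLC30A1, taken by symbol from the 60671 rows of the deposited expression table, and each symbol matched 1 row. Per the labels, 3 libraries came from cells given chrysin, a flavonoid of plants, on top of high glucose, 3 from cells given high glucose alone and 3 from cells given low glucose. No genetic change is named in the labels, and all 9 libraries share the AC16 line. The sources used here do not give the doses of glucose and chrysin or how long cells were treated.

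Metallothioneins are small, cysteine-rich proteins that bind zinc and copper and can take up reactive oxygen species. In humans most of them are encoded side by side in a gene cluster on chromosome 16. When free zinc in the cell goes up, MTF1 binds zinc through its zinc fingers, moves to the nucleus and binds short promoter sequences called metal response elements, from which it raises transcription of metallothionein genes and of SLC30A1. SLC30A1, also called ZnT1, sits in the plasma membrane and carries zinc out of the cell, so metallothioneins (which store zinc) and SLC30A1 (which exports it) are the textbook outputs of the same sensor. Metallothionein genes also respond to glucocorticoids and to oxidants.

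The 6 metallothionein genes lie within 76.0 kb of chromosome 16 (hg38, positions from GENCODE 29). In order along the chromosome they are MT2A (chr16:56608199-56609497, plus strand), MT1E (chr16:56625475-56627112, plus), MT1M (chr16:56632233-56633986, plus), MT1F (chr16:56657694-56660698, plus), MT1G (chr16:56666731-56668065, minus) and MT1X (chr16:56682424-56684196, plus). MTF1 (chr1:37809567-37859620, minus strand) and SLC30A1 (chr1:211571568-211578742, minus) lie far apart on chromosome 1. MT1X overlaps AC026461.1 on the same strand and MTF1 overlaps AL929472.4 on the other strand, and both of these overlapping genes were listed at 0 in all 9 libraries.

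Promoter sequence shows how the metal response element is laid out in these genes. RefSeq's promoter table (GRCh38.p14) held 4 of the 8 genes, MT2A, MT1X, SLC30A1 and MTF1, each with a window of 300 bases, 250 before the start site and 50 after it. The core of the element was searched as TGCACNC and TGCGCNC on both strands. A place can match only 1 of these 2 spellings, and overlapping matches on either strand were counted separately. The 250 bases before the start are printed 5′ to 3′ on the gene's own strand, with each match in capitals, for the 3 genes that held a match there. They cover chr16:56608334-56608583 (plus) for MT2A, chr16:56682220-56682469 (plus) for MT1X and chr1:211579162-211579411 (minus) for SLC30A1.
MT2A: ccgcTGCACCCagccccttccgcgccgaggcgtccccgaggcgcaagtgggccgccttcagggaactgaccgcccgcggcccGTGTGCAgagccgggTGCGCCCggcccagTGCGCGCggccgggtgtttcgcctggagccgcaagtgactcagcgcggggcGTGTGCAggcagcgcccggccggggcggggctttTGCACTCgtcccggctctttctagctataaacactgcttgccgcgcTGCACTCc
MT1X: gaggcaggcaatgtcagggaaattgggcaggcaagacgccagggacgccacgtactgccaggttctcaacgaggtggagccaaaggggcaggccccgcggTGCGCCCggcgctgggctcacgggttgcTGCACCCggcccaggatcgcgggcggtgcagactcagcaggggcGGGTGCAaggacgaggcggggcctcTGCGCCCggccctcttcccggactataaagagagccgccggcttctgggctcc
SLC30A1: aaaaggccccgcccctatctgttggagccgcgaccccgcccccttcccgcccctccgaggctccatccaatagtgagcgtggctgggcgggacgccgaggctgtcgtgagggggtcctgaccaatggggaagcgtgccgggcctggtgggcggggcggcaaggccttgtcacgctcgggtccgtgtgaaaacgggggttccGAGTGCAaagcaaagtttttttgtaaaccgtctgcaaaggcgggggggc
These 250 bases held 7 matches in MT2A, 4 in MT1X and 1 in SLC30A1, and 0 in MTF1, whose own window is not printed. Of all 35116 windows in the table, 0.0313% held at least 7 matches in the 250 bases, 0.37% at least 4 and 24.8% at least 1. Over the full 300 bases the counts were 8, 4, 2 and 0 in MT2A, MT1X, SLC30A1 and MTF1. A match is only a spelling, and binding of MTF1 was not measured here. The RefSeq starts of MT2A and MT1X lie inside the GENCODE 29 spans given above. The printed MT2A sequence, with all 7 matches, lies wholly within MT2A as GENCODE draws it, and the end of the MT1X sequence lies within MT1X. The RefSeq start of SLC30A1 lies upstream of its GENCODE 29 span. The bases directly before the GENCODE start of SLC30A1 were therefore not searched.

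Depth was similar across the libraries. Reads recovered from the expression values totalled 18329839 to 22158982 per library with chrysin, 19457798 to 23024300 in high glucose and 18171842 to 20863778 in low glucose. High glucose library 1 stood apart from its own group: over 10029 genes its median absolute log2 difference from libraries 2 and 3 was 0.0848 and 0.0924, against 0.0556 to 0.0596 in every other pair of replicates. Mitochondrially encoded genes took 3.8% to 3.89% of reads with chrysin, 2.8% to 3.04% in high glucose and 2.79% to 2.9% in low glucose. The labels call AC16 a cardiomyocyte line, but 9 of 10 cardiomyocyte markers, the sarcomere genes TNNT2, MYH6 and MYH7 among them, were under 1 FPKM in every library and 3 were at 0 throughout, while the cardiac transcription factor GATA4 averaged 9 ± 0.11, 9.41 ± 0.92 and 8.71 ± 0.23 FPKM with chrysin, in high glucose and in low glucose (SD, n = 3 each). The 7 fibroblast markers, collagens and fibronectin among them, summed to 6922 to 7077 FPKM with chrysin, 9827 to 10238 in high glucose and 8515 to 8782 in low glucose. Of these 7 markers 6 were called lower with chrysin against high glucose, as were 20.9% of all genes tested. Their log2 fold changes ran from -0.82 for COL1A1 to only -0.06 for VIM, while THY1 was not called (0.02). The part of these markers in the results on metallothioneins was not tested. The 3 endothelial markers were under 1 FPKM in every library, as were 2 of the 3 leukocyte markers, of which 1 was at 0 throughout. In RNA from whole cultures, fewer cells of a type and less RNA per cell cannot be told apart.

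Levels are in FPKM, a fragment count divided by transcript length and by library size, so that genes can be set side by side. Fold changes were taken on log2(FPKM + 0.5), a scale that makes changes of low genes look smaller than they are, and values written as "-fold" are ratios of group mean FPKM. A gene was called at a Benjamini-Hochberg adjusted p under 0.05 from limma over the 16996 genes tested, those whose mean reached 0.5 FPKM in some group. The labels do not say that replicates were separate cultures, so each p-value reflects only how far these libraries scatter, and that scatter may be technical. The 3 comparisons share libraries, so they are not independent of each other.

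Chrysin with high glucose against high glucose alone asked what differed once the flavonoid was added to cells held in high sugar. The treatment labels name no vehicle control, so chrysin and any solvent given with it cannot be told apart. MT2A, the metallothionein with the most RNA in these cells, fell about 3.30-fold, and MT1E, the next, fell 1.36-fold. MT1F and MT1M, metallothioneins with far less RNA, rose 1.67-fold and 2.03-fold, so members of the same cluster moved in opposite directions. MTF1 rose 1.30-fold and SLC30A1 rose 1.44-fold. Of the 7 members tested, 6 passed the test, 4 of them higher (MT1F, MT1M, MTF1 and SLC30A1) and 2 lower (MT2A and MT1E), where 45.8% of all genes tested passed, 24.9% higher and 20.9% lower. The same 6 had groups that did not overlap, as did 54.3% of all genes tested. The median log2 fold change of the 7 was 0.36, against 0.03 over all genes tested.

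MT2A stood at 137, 140 and 153 FPKM in the chrysin libraries, against 516, 464 and 443 FPKM in high glucose libraries 1 to 3. The groups did not overlap, and even the lowest high glucose library was far above the highest chrysin library. On the log2 scale MT2A changed by -1.72 (SE 0.06, adjusted p = 7.3e-09), or -1.66 without high glucose library 1 (adjusted p = 5.2e-08; the highest adjusted p over the alternatives was 8e-07, with no filter). A fall as large or larger was seen in 26 of the 16996 genes tested, MT2A included (0.153%). By mean level MT2A ranked 885 among 60671 genes with chrysin, against 177 in high glucose. These values rest on 1508, 1565 and 2032 reads with chrysin and on 6277, 6392 and 5162 in high glucose. Metallothioneins resemble each other in sequence, and for MT2A 3.02% of the 50-base stretches of its transcripts were found in another gene's transcripts. The share was 18.3% for MT1X, 16.5% for MT1G, 9.87% for MT1M, 7.1% for MT1E and 1.22% for MT1F, so how reads were split between near-identical copies makes the low members less certain. Of 100-base stretches 0% were shared for these genes except MT1X, with 11.3%, all with AC026461.1.

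MT1E had 36.4, 36.4 and 32.7 FPKM with chrysin, against 48.2, 48.7 and 46.3 FPKM in high glucose. The chrysin libraries all lay below the high glucose ones. MT1E fell by 0.44 on the log2 scale (SE 0.06, adjusted p = 0.0002), and a fall at least as large was seen in 10.2% of genes tested. MT1E therefore moved the same way as MT2A, by a smaller amount, while MT1M, the member nearest to it in the cluster, rose.

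MT1F and MT1M moved the other way. MT1F had 7.58, 5.72 and 6.07 FPKM with chrysin, against 4.68, 3.49 and 3.46 FPKM in high glucose, from 73 to 95 reads with chrysin and 46 to 65 in high glucose. The groups did not overlap, and library 1 was the highest of both. The log2 fold change was 0.67 (SE 0.18, adjusted p = 0.011). MT1M, which lies between MT1E and MT1F, had 4.67, 3.06 and 2.86 FPKM with chrysin, against 2.18, 2.07 and 0.978 FPKM in high glucose. Again no chrysin library reached down to the high glucose range, though chrysin library 1 was well above the other two. MT1M rose by 0.87 on the log2 scale (SE 0.24, adjusted p = 0.012). Without chrysin library 1 it was 0.67, and the call was lost at an adjusted p of 0.05, the highest among the alternatives tried, the lowest being 0.0099. MT1M rested on 18 to 27 reads per library with chrysin and 6 to 15 in high glucose.

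MT1X and MT1G, the members farthest along the cluster, were the lowest in these cells. MT1X had 1.76, 1.4 and 1.12 FPKM with chrysin, against 1.65, 1.4 and 1.91 FPKM in high glucose. The groups overlapped, and a log2 difference of -0.17 missed the threshold (SE 0.16, adjusted p = 0.41). It moved to -0.29 and -0.05 without chrysin library 1 and 3, and to -0.26 and -0.08 without high glucose library 2 and 3, and passed in none of these fits (adjusted p from 0.18 to 0.83). Counts of 20 to 30 reads per library in these 2 groups limit what could be detected for MT1X. MT1G averaged under 0.5 FPKM in all 3 groups and was not tested. Its reads were 2, 5 and 1 with chrysin, 2, 0 and 0 in high glucose and 4, 0 and 0 in low glucose. A count of 0 allows up to 3 reads, which is 0.298 to 0.377 FPKM in the libraries at 0. The ratio of MT1G reads per depth with chrysin over high glucose was 4.25, with an exact 95% interval of 0.848 to 41.1 that covers counting error only.

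MTF1, the sensor itself, had 11.4, 11.3 and 11.7 FPKM with chrysin, against 8.04, 9.15 and 9.25 FPKM in high glucose. The chrysin libraries were all higher, and close to each other. The log2 fold change was 0.36 (SE 0.07, adjusted p = 0.0021). SLC30A1 had 13.9, 14.5 and 14 FPKM with chrysin, against 9.16, 9.76 and 10.6 FPKM in high glucose. Here too the groups lay clear of each other, with a log2 fold change of 0.50 (SE 0.07, adjusted p = 0.00021). No 50-base stretch of the SLC30A1 transcripts (0%) was found in another gene, against 0.64% of those of MTF1. Without high glucose library 1, which stood apart from its group, the log2 fold changes were 0.30 for MTF1, 0.45 for SLC30A1, -0.43 for MT1E, 0.80 for MT1F and 1.02 for MT1M, and all 5 still passed.

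**Figure D1:**
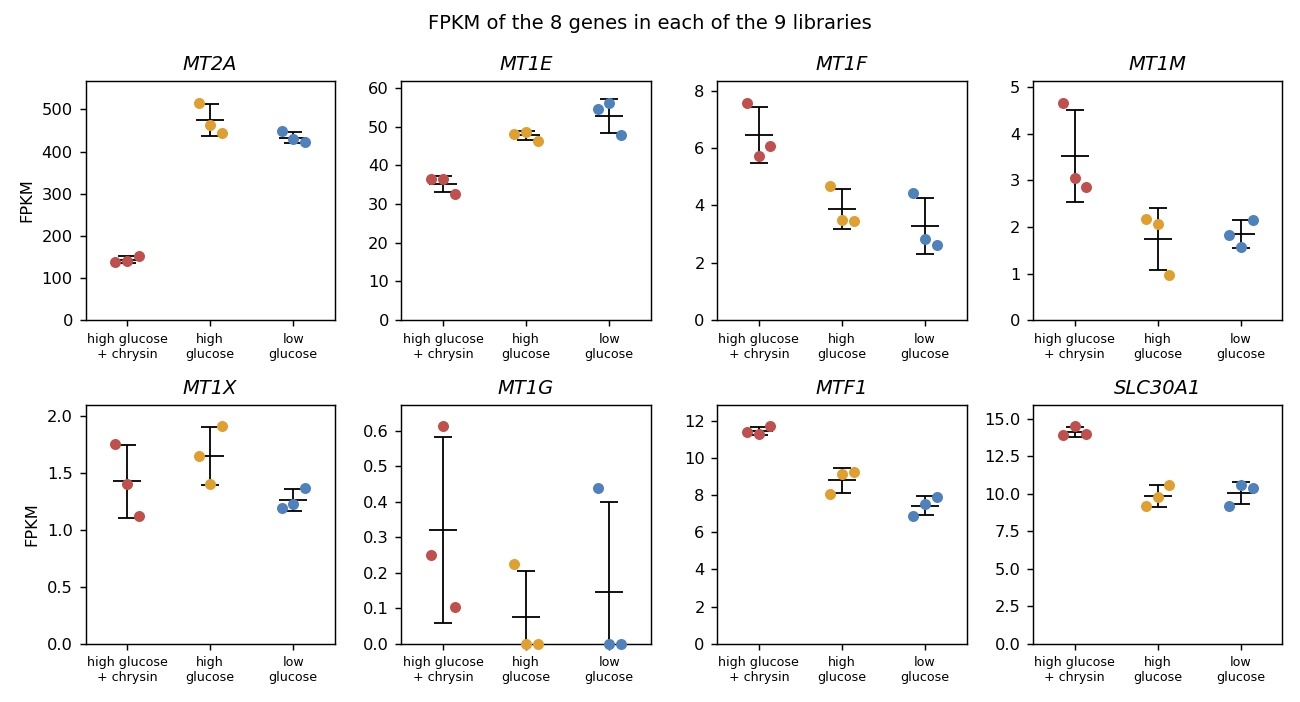
Level of each of the 8 genes in every library, in FPKM on a linear axis from 0 that differs between panels. Points are libraries (3 per group), the long bar is the mean and the short bars 1 SD, cut at 0. MT2A lies at 137 to 153 FPKM in the chrysin libraries and at 443 to 516 in high glucose, while MTF1 and SLC30A1 are higher with chrysin and MT1G is near 0.

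The comparison of high with low glucose set the groups without chrysin against each other. The labels name no osmotic control, so sugar level and osmolarity cannot be told apart. MTF1 was the 1 member of 7 that passed, higher in high glucose, where 23.5% of all genes tested passed (14.6% higher and 8.91% lower). The groups of MTF1 and MT1X, 2 of the 7, did not overlap, as was so for 37.9% of all genes tested. The median log2 difference of the 7 members was 0.13, against 0.02 over all genes tested.

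MTF1 had 8.04, 9.15 and 9.25 FPKM in high glucose, against 6.88, 7.55 and 7.9 FPKM in low glucose. The groups were apart by a narrow margin, with high glucose library 1 just above the highest low glucose library. The log2 fold change was 0.23 (SE 0.07, adjusted p = 0.044), a 1.18-fold rise close to the threshold. Without high glucose library 1 it was 0.29 (adjusted p = 0.016). This call did not survive leaving out low glucose library 1 or 2 (adjusted p = 0.15 and 0.08), high glucose library 2 or 3 (0.13 and 0.13) or chrysin library 1, 2 or 3 (0.062, 0.062 and 0.064). Median-of-ratios scaling also ended it (0.069), as did no filter (0.078) and a fit of only the 2 groups (0.084), and the adjusted p was lowest, at 0.0066, with limma voom on recovered reads.

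MT2A had 516, 464 and 443 FPKM in high glucose, against 448, 429 and 422 FPKM in low glucose. The ranges overlapped, and a log2 difference of 0.13 missed the threshold (SE 0.06, adjusted p = 0.12), though it passed with limma voom (0.029) and without high glucose library 3 (0.049). Over the alternatives the adjusted p of MT2A reached 0.34, without high glucose library 1. MT1E had 48.2, 48.7 and 46.3 FPKM in high glucose, against 54.5, 56.2 and 47.9 FPKM in low glucose, a difference of -0.14 that missed the threshold (adjusted p = 0.13) with overlapping groups. Without low glucose library 3 it was -0.21 and passed (adjusted p = 0.025, the lowest over the alternatives, the highest being 0.35). SLC30A1, at 9.16 to 10.6 FPKM in high glucose and 9.21 to 10.6 FPKM in low glucose, covered nearly the same range in both groups (log2 difference -0.03, adjusted p = 0.8).

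MT1X was higher in every high glucose library, at 1.4 to 1.91 FPKM, than in any low glucose library, at 1.19 to 1.37 FPKM. Its log2 difference of 0.28 nevertheless missed the threshold (SE 0.16, adjusted p = 0.23). MT1F and MT1M, with 34 to 65 and 6 to 15 reads per library in the 2 groups, differed by 0.23 (adjusted p = 0.41) and -0.11 (adjusted p = 0.79). Neither passed without any 1 library, but the MT1F difference moved to 0.43 without low glucose library 1 (adjusted p = 0.076), to 0.15 without low glucose library 2 and to 0.10 without high glucose library 1 and, separately, low glucose library 3 (adjusted p up to 0.76). That of MT1M lay between -0.27 and 0.17 as each library was left out, the ends being the fits without high glucose library 1 and without library 3 of that group.

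Chrysin with high glucose was also set against low glucose, the baseline of the design. These groups differ in both glucose and chrysin, and no library had chrysin in low glucose. The parts of glucose and chrysin therefore cannot be told apart in this comparison, where "with chrysin" means with chrysin and high glucose. Here 6 of 7 members passed, 4 higher (MT1F, MT1M, MTF1 and SLC30A1) and 2 lower (MT2A and MT1E), where 51.0% of all genes tested passed (29.7% higher and 21.3% lower). The groups of these 6 did not overlap, as was so for 60.0% of all genes tested. The median log2 fold change of the 7 was 0.47, against 0.05 over all genes tested. MT2A averaged 144 ± 8.4 FPKM with chrysin and 433 ± 13 in low glucose (SD, n = 3 each), 3.01-fold lower with chrysin (log2 -1.59, SE 0.06, adjusted p = 7.3e-09). MT1E averaged 35.2 ± 2.1 FPKM with chrysin and 52.9 ± 4.4 in low glucose (log2 -0.58, SE 0.06, adjusted p = 2e-05). Both genes thus stood below both groups without chrysin.

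Among those higher with chrysin, MTF1 averaged 11.4 ± 0.21 FPKM with chrysin and 7.44 ± 0.51 in low glucose (SD, n = 3 each), a log2 fold change of 0.59 (SE 0.07, adjusted p = 5.9e-05). Over the 3 groups MTF1 was highest with chrysin, lower in high glucose and lowest in low glucose. SLC30A1 averaged 14.1 ± 0.35 FPKM with chrysin and 10.1 ± 0.76 in low glucose (log2 0.47, SE 0.07, adjusted p = 0.00026). MT1F averaged 6.46 ± 0.99 FPKM with chrysin and 3.28 ± 0.99 in low glucose (log2 0.90, SE 0.18, adjusted p = 0.0016), and its lowest chrysin library was above its highest low glucose library. MT1M averaged 3.53 ± 0.99 FPKM with chrysin and 1.85 ± 0.3 in low glucose (log2 0.76, SE 0.24, adjusted p = 0.021). That call of MT1M was lost without chrysin library 1 (0.56, adjusted p = 0.086) or low glucose library 2 (0.67, adjusted p = 0.069), with no filter (adjusted p = 0.066) and with limma voom (adjusted p = 0.057), and the lowest adjusted p was 0.0046, without high glucose library 3. MT1X did not pass (0.12, adjusted p = 0.57).

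**Figure D2:**
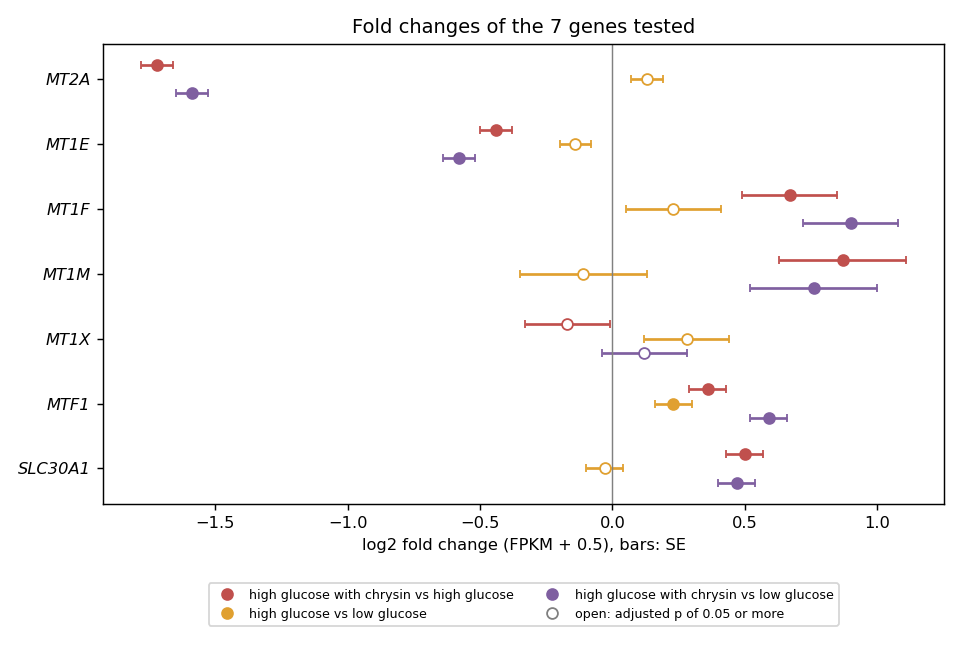
Log2 fold change of the 7 members tested, on the log2(FPKM + 0.5) scale, in each of the 3 comparisons. Bars are 1 SE, filled points passed the test (limma adjusted p under 0.05) and open points did not. MT2A is far to the left in both chrysin comparisons, at -1.72 and -1.59, and MT1E less so, while MT1F, MT1M, MTF1 and SLC30A1 are on the right.

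By level per length, MT2A led in all 3 groups, followed by MT1E. With chrysin the order then ran SLC30A1, MTF1, MT1F, MT1M, MT1X and MT1G, and the same order of means held in high and low glucose. In high glucose the ranges of SLC30A1 (9.16 to 10.6 FPKM) and MTF1 (8.04 to 9.25 FPKM) overlapped, though SLC30A1 was the higher within each library. The ranges of MT1M (0.978 to 2.18 FPKM) and MT1X (1.4 to 1.91 FPKM) also overlapped there, and their order differed between libraries. In low glucose SLC30A1 and MTF1 lay apart, with lowest and highest libraries of 9.21 and 7.9 FPKM.

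The summed FPKM of the 6 metallothioneins was 188, 187 and 196 with chrysin, against 573, 519 and 496 in high glucose and 510, 490 and 476 in low glucose. MT2A supplied most of that sum in every library, and most of the drop. Its share was 75.3% ± 2.6 with chrysin, 89.6% ± 0.42 in high glucose and 87.9% ± 0.64 in low glucose (SD, n = 3 each). MT1E supplied 16.7% to 19.4% with chrysin, 8.42% to 9.37% in high glucose and 10.1% to 11.5% in low glucose. The other 4 genes together went no higher than 7.58% in any library, and all 3 of their chrysin shares were above those without chrysin. The rises of MT1F and MT1M were therefore small in FPKM beside the fall of MT2A.

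The ratio of MT2A to MT1E, set within each library and so free of library scaling, was 3.77, 3.85 and 4.68 with chrysin, against 10.7, 9.53 and 9.57 in high glucose and 8.21, 7.63 and 8.8 in low glucose. The 3 groups did not overlap. The mean log2 ratio was 1.28 lower with chrysin than in high glucose and 1.01 lower than in low glucose, and it was 0.27 higher in high than in low glucose. Each of these 3 differences had a two-sided exact permutation p of 0.1, the smallest that 3 against 3 libraries can give. Both genes fell with chrysin, unequally.

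**Figure D3:**
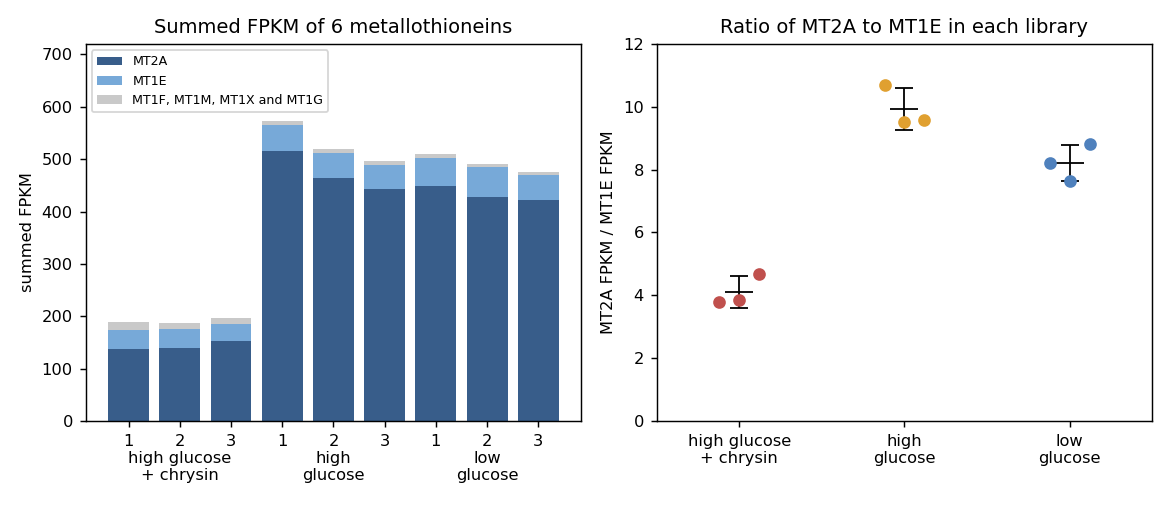
Left, summed FPKM of the 6 metallothioneins in each library, stacked as MT2A, MT1E and the other 4. Right, ratio of MT2A to MT1E FPKM in each library, with the mean and 1 SD (3 libraries per group). The chrysin bars reach 187 to 196 FPKM and their ratios 3.77 to 4.68, below all libraries of the other groups.

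Across the 9 libraries the members fell into opposite-moving sets, which is a description, since the libraries form 3 groups. On log2(FPKM + 0.5), Pearson's r was 0.91 between MT2A and MT1E, 0.89 between MTF1 and SLC30A1, and 0.77 between MT1F and MT1M. It was -0.97 between MT2A and SLC30A1, the store and the exporter, and -0.87 between MT2A and MTF1. MT1X followed none of them closely, with r between -0.07 and 0.19 over its 6 pairs.

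Genes with the pattern most like MT2A were sought among 3832 genes whose group means ranged over at least 0.5 on the log2 scale. By Pearson's r over the 9 libraries they were SLC2A1, the glucose transporter GLUT1 (r = 0.997), VAT1 (0.996), the annexin ANXA1 (0.996), the autophagy kinase ULK1 (0.995) and RFLNA (0.995). SLC2A1 averaged 68 FPKM with chrysin, 130 in high glucose and 127 in low glucose. In all, 372 of the 3832 genes had an r over 0.95 with MT2A, so the pattern was a common one. For MTF1 the closest were BTRC (0.993), ZFC3H1 (0.989), ZNF28 (0.987), TCTN3 (0.986) and GPATCH2L (0.986). BTRC, a substrate receptor of a ubiquitin ligase, averaged 14.1 FPKM with chrysin, 11 in high glucose and 9.54 in low glucose. For SLC30A1 they were the kinase gene BTK (0.984), the leptin receptor gene LEPR (0.984), the apoptosis inhibitor gene BIRC2 (0.984), KLHL42 (0.983) and ZNF596 (0.982). BTK averaged 0.622 FPKM with chrysin, 0.0876 in high glucose and 0.0551 in low glucose, so it was considered only through the group in which it is high. MT1X had too small a range of group means (0.28) for such a search.

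Other metallothionein genes were few in these cells. Of 15 listed names 14 were in the table and 4 were tested. Against high glucose 2 of the 4 passed, MT2P1 and MT1P3, where 45.8% of all genes tested did. MT2P1, a processed pseudogene on chromosome 4, fell to 1.97 ± 0.9 FPKM with chrysin, against 5.65 ± 1.6 in high glucose (SD, n = 3 each; log2 -1.34, SE 0.28, adjusted p = 0.0024). MT2P1 rested on only 2, 3 and 6 reads with chrysin and 11, 15 and 7 in high glucose. Of its 50-base stretches 15.7% also occur in another gene, nearly all of them in MT2A, so its value is uncertain beside that of MT2A. MT1P3 reached 0.5 FPKM only in the chrysin group, so it entered the test through the group in which it is high. Its call, and the count that includes it, rest on that choice. It had 4, 1 and 3 reads with chrysin, against 0, 1 and 0 in high glucose and 0 in all 3 low glucose libraries. The ratio of MT1P3 reads per depth with chrysin over high glucose was 8.49 (exact 95% interval 1.14 to 377, counting error only). MT1P3 overlaps MMP24OS on the other strand, and the strand setting is not known. It also shares 50-base stretches with MT1E, MT1L, MT1F and MT1A among others, so the origin of its few reads is uncertain. The number of the 4 that passed was 1 without chrysin library 1.

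In high against low glucose, where 23.5% of all genes tested passed, limma called 0 of these 4 genes (0 at an unadjusted p under 0.05 and 0 with limma voom). With chrysin and high glucose together, MT2P1 was lower than in low glucose (log2 -0.99, SE 0.28, adjusted p = 0.012). It had only 9, 5 and 9 reads in low glucose. Of the 4 genes, limma voom called 1 in this comparison, against 2 in the main fit. MT1P3 reads per depth were 2.62-fold higher with chrysin when 3 reads were taken for the whole low glucose group. That ratio leaves out counting error in the 8 chrysin reads, so it is not a lower limit. MT1L averaged 4.62 ± 0.96, 5.89 ± 1.2 and 5.36 ± 0.21 FPKM with chrysin, in high glucose and in low glucose, and MT1A 1.25 ± 0.63, 1.44 ± 0.18 and 0.813 ± 0.41 FPKM (SD, n = 3 each). Neither passed in any of the 3 comparisons. MT1L and MT1A were named after their values were seen.

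SLC30A1 belongs to the ZnT exporters, which move zinc out of the cytosol, while the ZIP importers bring it in. Of 10 other ZnT genes 6 were tested. Against high glucose 3 of the 6 passed, all higher with chrysin, where 45.8% of all genes tested passed and 24.9% were higher. The median of the 6 was 0.15, against 0.03 over all genes. SLC30A6, which loads zinc into the Golgi together with SLC30A5, averaged 27.2 ± 0.71 FPKM with chrysin and 19.1 ± 0.76 in high glucose (SD, n = 3 each; log2 0.50, SE 0.05, adjusted p = 2.4e-05), a rise of the same size as that of SLC30A1. SLC30A5 rose by 0.15 (adjusted p = 0.0045) and SLC30A9, a mitochondrial zinc transporter, by 0.15 (adjusted p = 0.022). In high against low glucose, where 23.5% of all genes tested passed, limma called 0 of the 6, with a median of 0.05 against 0.02. The number was 1 at an unadjusted p under 0.05, 0 with limma voom and 1 without high glucose library 3. With chrysin and high glucose together, 3 of the 6 were higher than in low glucose (29.7% of all genes tested were). They were SLC30A6 (0.54, adjusted p = 1.1e-05), SLC30A9 (0.17, adjusted p = 0.012) and SLC30A4 (0.30, adjusted p = 0.027). The median of the 6 was 0.20, against 0.05 over all genes.

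Of 14 ZIP importers 10 were tested. With chrysin against high glucose 5 of the 10 passed, close to the 45.8% of all genes tested. Of these 4 rose and 1 fell, and the median of the 10 was 0.13, against 0.03 over all genes. The gene that fell was SLC39A10, an importer of the plasma membrane whose mouse counterpart is known to be repressed by MTF1, at 13.3 ± 0.52 FPKM with chrysin and 23.9 ± 1.7 in high glucose (SD, n = 3 each; log2 -0.82, SE 0.07, adjusted p = 4.6e-06). SLC39A9, an importer of the Golgi, rose by 0.50 (adjusted p = 3.7e-06), SLC39A7, which releases zinc from the endoplasmic reticulum, by 0.28 (adjusted p = 0.00013), and SLC39A14, which also carries iron, by 0.24 (adjusted p = 0.00048). The fourth, SLC39A3, rose by 0.24 (adjusted p = 0.0041).

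In high against low glucose 2 of the 10 ZIP genes rose and 1 fell (23.5% of all genes tested passed), with a median of 0.03 against 0.02 over all genes. Only 1 rose without high glucose library 1 or 2 or low glucose library 1 or 2. SLC39A14 fell to 155 ± 9 FPKM in high glucose, against 243 ± 1.4 in low glucose (SD, n = 3 each; log2 -0.65, SE 0.04, adjusted p = 2.1e-06), while SLC39A7 (0.16, adjusted p = 0.01) and SLC39A3 (0.19, adjusted p = 0.033) rose. With chrysin and high glucose together, 3 of the 10 were higher than in low glucose and 2 lower (51.0% of all genes tested passed). The median of the 10 was 0.05, equal to that of all genes. SLC39A9 was higher by 0.55 (adjusted p = 1.3e-06) and SLC39A7 by 0.43 (adjusted p = 3.7e-06). SLC39A10 was lower by 0.75 (adjusted p = 5.9e-06) and SLC39A14 by 0.41 (adjusted p = 9.1e-06). SLC39A14 was lower in high glucose alone (-0.65) and higher when chrysin was added to high glucose (0.24).

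**Figure D4:**
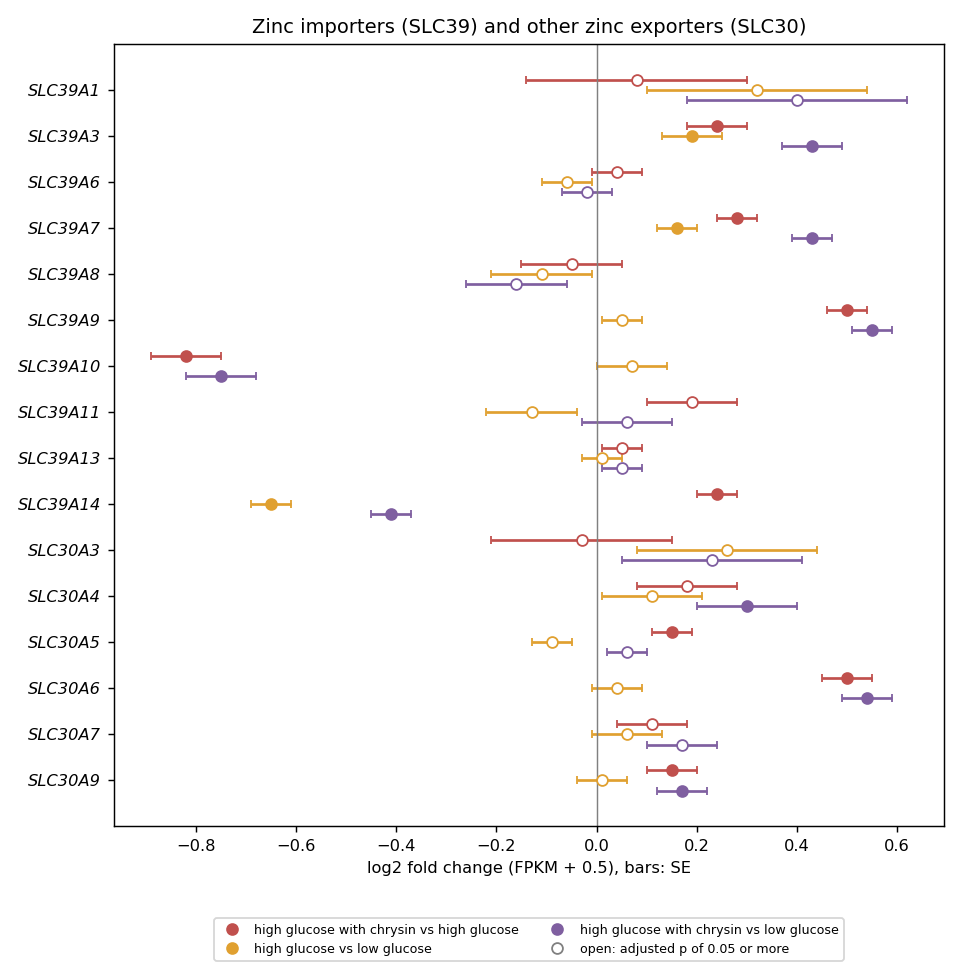
Log2 fold change of the 10 ZIP importers (SLC39) and 6 other ZnT exporters (SLC30) tested, on the log2(FPKM + 0.5) scale, in the 3 comparisons. Bars are 1 SE, filled points passed the test (limma adjusted p under 0.05) and open points did not. SLC39A10 is the gene farthest to the left, at -0.82 and -0.75 in the chrysin comparisons, and SLC39A9 and SLC30A6 lie near 0.50 to 0.55.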

How the data were processed

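RNA was measured in 9 libraries, grouped by their treatment labels, and columns were matched to libraries by title. The labels name polyA RNA and commercial extraction and library kits. Per the submitters' processing notes, the build was hg38 and the tools were HISAT2 2.2.1, HTSeq 0.13.5, fastp 0.23.4 and StringTie 2.2.1, with no roles. The tool behind the table, the annotation release, the read length and the strand setting are details that the sources used here do not give. The authors deposited 1 table of FPKM, a unit inferred from its values, as its header names none.

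A gene's values are whole multiples of 1 step in each library. From these steps, whole reads (to within a common divisor) were recovered for 28230 of 28230 genes above 0 in at least 2 libraries, within 4.6e-05 reads of a whole number. The test was limma 3.58.1 (R 4.3.3) on log2(FPKM + 0.5) with the prior variance following the mean. Genes needed a mean of 0.5 FPKM in some group. Comparisons were made as two-sided contrasts in 1 fit of all 9 libraries with no block, at a Benjamini-Hochberg adjusted p under 0.05. Of the rows, 1094 carry a repeated gene name and were tested separately. The procedure was tested on simulated data. With 3 libraries a group, an exact permutation p is at least 0.1.

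The members, the 5 pathway lists (ZIP importers, other ZnT exporters, other metallothionein genes, copper handling and glucocorticoid-induced genes) and the markers were chosen with earlier results of these data known. All 8 members were named. In each list up to 4 genes with the smallest p were named per comparison, besides others said to be chosen later, and for MT2A, MTF1 and SLC30A1 the 5 genes with the highest Pearson's r. Gene positions came from GENCODE 29, and promoters from RefSeq (GRCh38.p14). The alternatives tried were no filter, a filter of 5 FPKM, pseudocounts of 0.1 and 1, limma voom on the recovered reads, scaling by the median of ratios, a block for the replicate number, only the groups compared, and leaving out each library.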

Additional observations from a re-analysis of the deposited data

How the results depend on the processing

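Of the members' results, those of chrysin against high glucose kept their direction and call under the alternatives, except MT1M without chrysin library 1, and the number of members called was 5 to 6 when each library was left out. In high against low glucose the number of members called, 1, became 0 with no filter, with median-of-ratios scaling and with only the groups compared, 2 with limma voom and 2 with the replicate number as a block, and 0 to 2 when each library was left out. The block added MT1E (adjusted p = 0.037). Over all genes tested, same-numbered libraries did not deviate together (correlations of -0.015 to 0.008). This cannot show whether libraries were handled in pairs. The block changed no other member's call, though it lowered the SE of MT1F in chrysin against high glucose from 0.18 to 0.10. Directions that turned all belonged to differences that did not pass: MT1M in high against low glucose without high glucose library 3 (0.17, range -0.27 to 0.17 when each library was left out), SLC30A1 in the same comparison without high glucose library 1 (0.02) or low glucose library 2 (0.01; range -0.09 to 0.02), and MT1X with chrysin against low glucose without chrysin library 1 (-0.01; range -0.01 to 0.23). Leaving out each library gave 1 to 3 called other metallothionein genes for chrysin against high glucose, 0 to 1 other ZnT exporters in high against low glucose, and 0 to 2 and 3 to 6 copper genes in high against low glucose and chrysin against low glucose. A filter of 5 FPKM left MT1M and MT1X untested. Reads limit MT1G, MT1M and MT1X. Median-of-ratios scaling took the median of all genes from 0.03 to 0.021 in chrysin against high glucose.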

Other observations

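Metallothioneins also bind copper, and copper handling genes changed little in size. Of 12 such genes, all tested, 4 rose and 2 fell with chrysin against high glucose, where 45.8% of all genes tested passed (24.9% higher and 20.9% lower), with a median log2 fold change of 0.04 against 0.03 over all genes. SCO1, a mitochondrial copper chaperone, rose by 0.30 (limma adjusted p = 0.00041), the copper importer SLC31A1 by 0.28 (adjusted p = 0.0011) and CCS, which hands copper to SOD1, by 0.22 (adjusted p = 0.00084). SOD1, the copper and zinc superoxide dismutase, averaged 129 ± 5.1 FPKM with chrysin and 149 ± 9.1 in high glucose (SD, n = 3 each; -0.21, adjusted p = 0.0028). In high against low glucose, where 23.5% of all genes tested passed, CCS alone of the 12 did (-0.12, adjusted p = 0.048), with a list median of 0.07 against 0.02 over all genes, and limma voom called 0. Leaving out high glucose library 2 gave 2 calls, and leaving out high glucose library 3 or any 1 chrysin or low glucose library gave 0. With chrysin and high glucose together, 4 were higher and 2 lower than in low glucose (51.0% of all genes tested passed, median 0.11 against 0.05). Among them were SCO1 at 0.42 (adjusted p = 3.2e-05), SLC31A1 at 0.21 (0.0062), COMMD1, which takes part in copper export, at -0.27 (0.0043) and SOD1 at -0.13 (0.026). Without low glucose library 1 or 3 the number called was 3, and 2 were higher without chrysin library 1 or 2 or any 1 low glucose library.

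Genes known to be induced by glucocorticoids, to which MT2A also belongs, were also counted. Of 11 such genes 9 were tested, and against high glucose 5 of the 9 fell with chrysin (20.9% of all genes tested did), with a median of -0.27 against 0.03 over all genes. KLF9, a transcription factor, averaged 2.69 ± 0.37 FPKM with chrysin and 6.39 ± 0.53 in high glucose (SD, n = 3 each; -1.11, SE 0.10, limma adjusted p = 9.1e-06). GLUL, glutamine synthetase (-0.34, adjusted p = 0.00039), TSC22D3 (-0.35, 0.0052) and the kinase SGK1 (-0.17, 0.0053) also fell. FKBP5, a common marker of glucocorticoid action, averaged 13 ± 0.35, 13.2 ± 0.28 and 13.1 ± 0.7 FPKM with chrysin, in high glucose and in low glucose and passed in no comparison. FKBP5 was named after its values were seen. In high against low glucose 2 rose and 4 fell, where 14.6% of all genes tested rose and 8.91% fell (median 0.01 against 0.02). The number that rose was 0 without high glucose library 3 or low glucose library 1 or 3, and 1 without high or low glucose library 2 or chrysin library 1 or 3. Those that fell were SGK1 (-0.57, 7.7e-06), the clock gene PER1 (-0.98, 0.00015), TSC22D3 (-0.56, 0.00079) and ERRFI1 (-0.35, 0.00084). With chrysin and high glucose together, 6 of the 9 were lower than in low glucose (21.3% of all genes tested were, median -0.47 against 0.05). Among them were SGK1 at -0.74 (1.9e-07), PER1 at -1.31 (3.2e-06), TSC22D3 at -0.91 (5.7e-06) and KLF9 at -0.92 (2.6e-05). SGK1, PER1 and TSC22D3 were already lower in high glucose alone, by the values given above, while KLF9 was not called there (0.19, adjusted p = 0.21).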
